A study of Mus musculus with 2 samples.

Results

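The receptors for dopamine and adenosine were examined in the left cerebral cortex of young mice. The genes were taken by symbol: Drd1, Drd2, Drd3, Drd4 and Drd5 for dopamine, and Adora1, Adora2a, Adora2b and Adora3 for adenosine. All 9 had a row in the gene table, out of 55536 genes. The tissue came from male B6CASTF1/J mice, the first-generation hybrid of the C57BL/6 and CAST strains, aged 14 days, with no treatment or mutation named. Total RNA sequencing of 300 ng of RNA gave 2 libraries, biological replicates 1 and 2, which form 1 group. In the labels each library has its own biosample, the donor entry is shared and 3 males are mentioned, so it is unclear whether tissue was pooled and whether the spread between libraries is biological or technical. No conditions were compared and no p-value was computed, since 2 values allow no exact two-sided p below 0.5.

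Dopamine receptors fall into a D1 class (Drd1, Drd5), which raises cyclic AMP through stimulatory G proteins, and a D2 class (Drd2, Drd3, Drd4), which lowers it through inhibitory ones. Adenosine receptors divide in the same way: the A1 and A3 receptors (Adora1, Adora3) couple to inhibitory G proteins, and the A2 receptors (Adora2a, Adora2b) to stimulatory ones. In the striatum, which lies beneath the cortex, Drd1 marks the projection neurons of the direct pathway, and Drd2 and Adora2a are found together in those of the indirect pathway. The cortex holds neurons with Drd1 or Drd2 largely in its deep layers, and the A1 receptor is abundant there and is known for holding back transmitter release.

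Sequences are shown for the coding exon that separates the long and the short form of the D2 receptor, and for the promoters of Drd1, Drd2 and Adora1. The first matters because the annotation used for counting, GENCODE M21, lists 1 Drd2 transcript, Drd2-201 (8 exons, 444 codons), and this transcript holds the exon. The exon is exon 6 of 8 and lies at chr9:49403194-49403280 on the plus strand of mm10. Its 87 bases make 29 whole codons, after 723 coding bases, so leaving it out keeps the reading frame. It is printed in capitals between 30 bases of each neighbouring exon, as read from the transcript sequence.
Drd2 exon 6: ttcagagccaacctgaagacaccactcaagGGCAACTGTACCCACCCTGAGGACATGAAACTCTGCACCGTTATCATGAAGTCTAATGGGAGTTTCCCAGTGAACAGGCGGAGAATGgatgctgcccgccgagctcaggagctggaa
With no short transcript in the annotation, both tables put 100% of Drd2 in Drd2-201 in both libraries, and the split between the forms was not measured. A read from either form outside this exon and its junctions matches Drd2-201.

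The promoters of Drd1 and Drd2, whose levels differed most between the libraries among the well-counted dopamine receptors, are printed beside that of Adora1, whose level was the highest. They come from RefSeq (GRCm38.p6), read on the strand of the gene, and end before the first annotated exon. The Drd1 stretch covers chr13:54055706-54055908 on the minus strand, the Drd2 stretch chr9:49340153-49340402 on the plus strand, and the Adora1 stretch chr1:134235458-134235707 on the minus strand. Capitals mark a GC box, GGGCGG or its reverse CCGCCC.
Drd1 promoter: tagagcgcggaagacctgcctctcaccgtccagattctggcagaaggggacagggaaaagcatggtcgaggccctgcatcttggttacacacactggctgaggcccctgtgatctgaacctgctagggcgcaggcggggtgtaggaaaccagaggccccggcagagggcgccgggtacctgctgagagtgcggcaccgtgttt
Drd2 promoter: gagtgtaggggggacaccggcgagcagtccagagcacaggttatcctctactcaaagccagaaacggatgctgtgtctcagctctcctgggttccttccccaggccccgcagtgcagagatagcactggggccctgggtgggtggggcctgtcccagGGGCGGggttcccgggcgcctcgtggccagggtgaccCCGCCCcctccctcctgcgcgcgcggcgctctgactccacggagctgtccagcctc
Adora1 promoter: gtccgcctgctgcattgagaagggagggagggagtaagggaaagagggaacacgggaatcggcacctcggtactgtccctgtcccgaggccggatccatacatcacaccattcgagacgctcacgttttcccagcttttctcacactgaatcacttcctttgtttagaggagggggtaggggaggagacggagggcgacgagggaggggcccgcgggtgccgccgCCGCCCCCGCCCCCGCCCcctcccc
The printed stretch of Drd1 (203 bases) holds 0 GC boxes, that of Drd2 holds 2 and that of Adora1 holds 3. The Drd1 stretch is 47 bases shorter than the others, because annotated exon was left out. CG dinucleotides number 11, 15 and 19 in these stretches. In 300-base windows, of which 250 bases lie before the start site, 35.7% of 32851 RefSeq mouse promoters hold a GC box on either strand, 13.6% hold TATAAA (reverse TTTATA) and 37.4% hold CCAAT (reverse ATTGG). The table has 10 windows for 8 of the 9 genes (all but Adora2a). A GC box occurs in 7 of these 10 windows, among them both of Drd1 (1 in each) and 1 of the 2 of Adora1, and TATAAA occurs in 0. CG dinucleotides number 38 in the Drd5 window, 27 in Adora2b, 26 and 24 in the windows of Adora1, 23 in Drd2, 23 and 6 in those of Drd1, and 15 in Drd4. Drd3 has 2 and Adora3 has 1. The median over all promoters is 7, and the windows of Drd3 and Adora3 and the second of Drd1 lie below it.

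The libraries held 28263266 and 30862848 expected counts, estimated reads that need not be whole, so that a count of 0 would allow up to 3 counts, or 0.106 and 0.0972 CPM (counts scaled to library size). Levels are given as TPM, a share of all transcripts that takes length into account. The tissue label was met by markers of cortical excitatory neurons: all 7 were detected, meaning at least 1 TPM in both libraries, with a summed level of 1600 TPM in replicate 1 and 1882 in replicate 2, among them Camk2a (782 and 965), Slc17a7 (684 and 741) and Tbr1 (47.4 and 50.3). The libraries stood apart in striatal genes. The 14 shared markers of striatal projection neurons summed to 820.1 TPM in replicate 1 and 372.0 in replicate 2, and the 4 indirect-pathway markers to 125 and 31.0. Markers of the cerebellum, another region, summed to 0.67 and 2.29 TPM, and 0 of 6 reached 1 TPM in both libraries.

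Adora1 was the receptor with the highest level, above all of the other 8 in both libraries, and its libraries differed little. Drd1, Adora2a and Drd2 followed on average, at levels that were several times higher in replicate 1 than in replicate 2. Adora2b was low and alike in both, and Drd5, Drd3, Adora3 and Drd4 lay near or below 1 TPM. At least 1 TPM in both libraries was reached by 5 of 9 receptors (55.6%): Adora1, Drd1, Adora2a, Drd2 and Adora2b. That share was 27.1% of all genes (15028 of 55536) and 58.7% of nuclear protein-coding genes (12931 of 22015), so the receptors were detected about as often as protein-coding genes are.

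**Figure D1:**
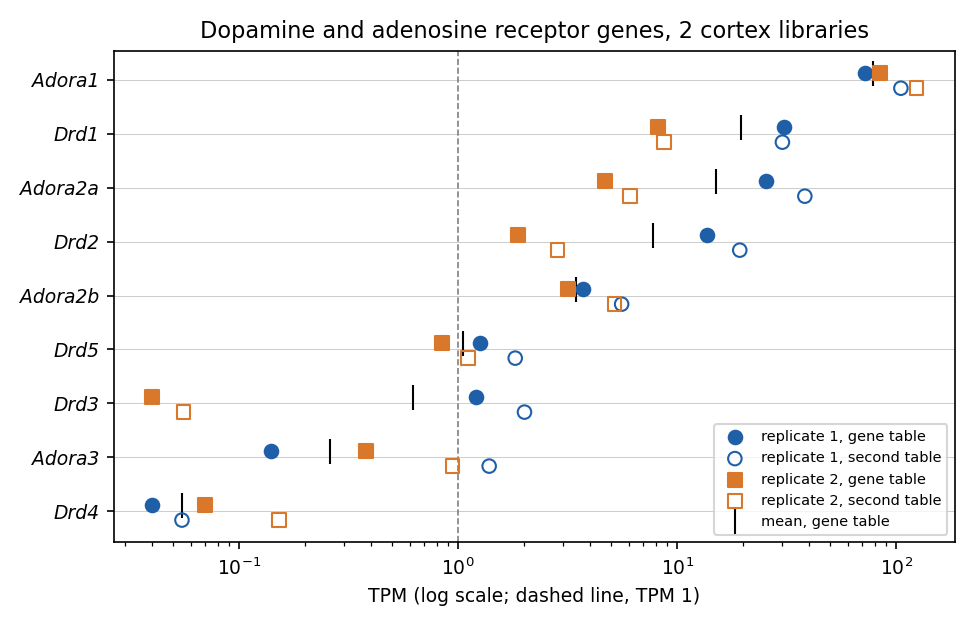
Level of each receptor gene in TPM (log axis), with filled circles and squares for replicates 1 and 2 in the gene table, open symbols for the second transcript table and a bar for the mean. Adora1 stands at 72.05 and 84.28 TPM in the gene table, above all others, and the symbols of Drd1, Adora2a, Drd2 and Drd3 lie far apart.

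Among neighbours in the order of mean level, the libraries did not overlap for Adora1 over Drd1, Adora2b over Drd5 and Adora3 over Drd4. The last of these steps rests on 3 and 9 against 2 and 4 counts and is uncertain. The other 5 steps overlapped, although Drd1 lay above Adora2a, and Adora2a above Drd2, within each library. Drd2 was above Adora2b in replicate 1 and below it in replicate 2, and Drd3 and Adora3 changed places as well. Set against nuclear protein-coding genes by mean TPM, Adora1 lay above 94.1% of them, Drd1 above 74.5%, Adora2a above 69.5% and Drd2 above 58.5%.

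Differences between the libraries were large for 4 of the receptors. On the log2 CPM scale, replicate 2 minus replicate 1, 7 receptors reached 10 counts in at least 1 library and could be compared. Drd1, Drd2, Drd3 and Adora2a were lower in replicate 2 by more than 2-fold, and 0 were higher by that much. Drd3 passed the count limit only through replicate 1, where it is high. With a mean of at least 100 counts instead, 3 of 5 receptors (Drd1, Drd2 and Adora2a) were lower by more than 2-fold, against 0.689% of genes (87 of 12625). Of all 18965 genes compared, 2.5% were lower by more than 2-fold (474) and 1.44% higher (274). Of 14862 nuclear protein-coding genes, 1.9% were lower (282) and 0.848% higher (126). The median difference of the 7 receptors was -1.78, against -0.0003 for all genes. Without Drd3 it would lie between the values of Drd1 (-1.78) and Drd5 (-0.57). With 1 library on each side this describes these libraries only, and in bulk tissue fewer cells of a type and less RNA per cell cannot be told apart.

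**Figure D2:**
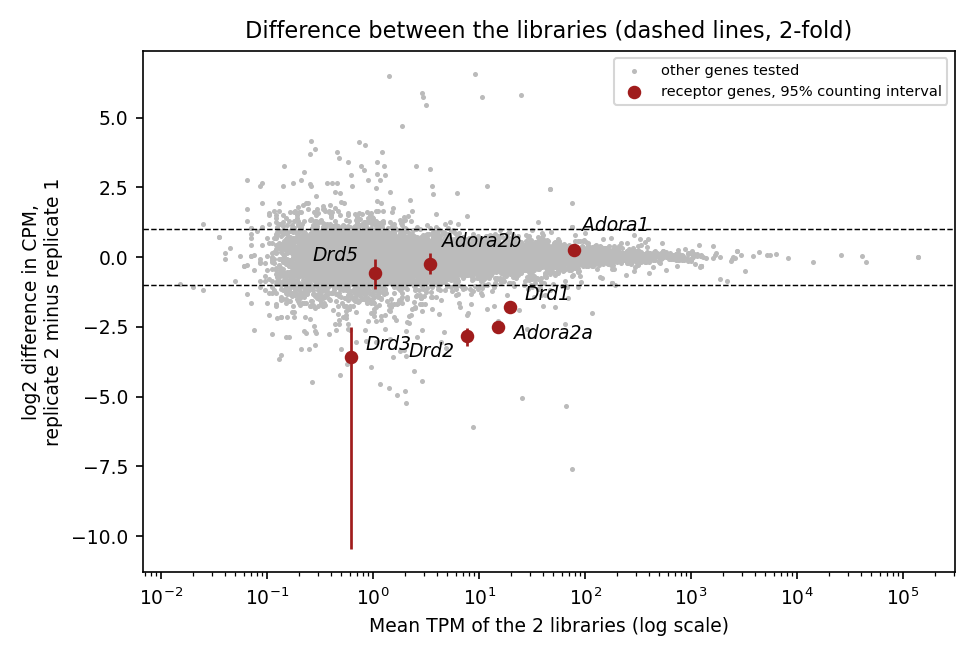
Difference between the libraries (log2 CPM, replicate 2 minus replicate 1) against mean TPM (log axis) for the genes compared, in grey, and the 7 receptor genes, in red with the 95% interval of counting error. Drd1, Adora2a and Drd2 lie between -1.78 and -2.84, below most grey points of similar level, while Adora1, Adora2b and Drd5 lie within the grey band.

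Of the D1 class, Drd1 encodes the main D1 receptor of striatal and cortical neurons. Drd1 (chr13:54051183-54055705, minus strand, 3 annotated transcripts) had 1357 expected counts in replicate 1 and 423 in replicate 2. Its level was 30.78 and 8.15 TPM (mean 19.5 ± 16.0, SD, n = 2). Replicate 1 was the high library and the values lie far apart. The log2 difference was -1.78, or 3.42-fold lower in replicate 2, and the exact 95% interval of the count ratio, which covers counting error only, ran from -1.94 to -1.62. Of all genes compared, 112 were at or below this value.

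Drd5, the other D1-class receptor, known from cortical and hippocampal neurons at low levels, was close to the limit of 1 TPM. Drd5 (chr5:38319367-38322518, plus strand, 1 transcript) had 73 and 52 counts, or 1.26 and 0.84 TPM (mean 1.05 ± 0.30). Replicate 2 was lower here too, by less. The difference was -0.57 (counting interval -1.13 to -0.06), and 6.84% of the genes compared were at or below it. An antisense gene that overlaps it, Gm26560, had 0 and 2 counts.

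Of the D2 class, Drd2 acts both as a receptor of target neurons and as the autoreceptor of dopamine neurons. Drd2 (chr9:49340627-49408177, plus strand) had 632 counts in replicate 1 and 93 in replicate 2, or 13.59 and 1.87 TPM (mean 7.73 ± 8.29). The SD was larger than the mean. Replicate 2 was 7.14-fold lower, a log2 difference of -2.84 (counting interval -3.19 to -2.55), and 36 of the genes compared were at or below it.

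Drd3, the receptor of the ventral striatum and islands of Calleja, was nearly a single-library signal. Drd3 (chr16:43754026-43822932, plus strand, 2 transcripts) had 32 counts in replicate 1 and 1 in replicate 2, or 1.20 and 0.04 TPM (mean 0.62 ± 0.82). The count ratio, depth taken into account, was 0.0292, with an exact 95% interval of 0.000717 to 0.175. The fitted log2 difference was -3.57 with a prior count of 2 and -4.52 with 0.5, so its size depends on that setting. The microRNA gene Gm25996, which overlaps it on the same strand, had 0 counts in both libraries.

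Drd4, a receptor known from the prefrontal cortex and the retina, was at the limit of what could be counted. Drd4 (chr7:141292006-141296464, plus strand, 2 transcripts) had 2 and 4 counts, or 0.04 and 0.07 TPM (mean 0.055 ± 0.021). The ratio of the counts was 1.87, with an interval of 0.268 to 20.6, so no difference was detectable at this depth.

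Of the inhibitory adenosine receptors, Adora1 was the highest receptor of the set. Adora1 (chr1:134199223-134235431, minus strand, 4 transcripts) had 5649 and 7198 counts, or 72.05 and 84.28 TPM (mean 78.2 ± 8.65). It was the only one of the 7 compared that was higher in replicate 2, at 0.25 on the log2 scale (counting interval 0.20 to 0.30), or 1.19-fold. A difference of that size was common, since 14.2% of the genes compared were at or above it. Mybph overlaps it on the opposite strand and had 3 and 2 counts.

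Adora3, known from mast cells and, in the mouse brain, from microglia, depended on the quantification. Adora3 (chr3:105870858-105908926, plus strand, 3 transcripts) had 3 and 9 counts in the gene table, or 0.14 and 0.38 TPM, but 36.6 and 27.2 in the second transcript table, or 1.38 and 0.94 TPM. The direction between libraries turned as well: the ratio of the first counts was 2.80 (interval 0.699 to 16.1), and the second table gave a log2 difference of -0.53. Tmigd3 overlaps it on the same strand and shares exonic bases, and the part of this overlap in the gap between the tables was not tested. Adora3-202, which took all 3 and 8 of 9 counts in the first table, shares 109 bases with Tmigd3-203. It also shares 105 with Tmigd3-201 and with Tmigd3-207. Adora3-201, which led in the second table, shares 670 with Tmigd3-202. Tmigd3 itself had 2 and 3 counts. The level of Adora3 is uncertain, and the 10 microglia markers summed to 214 and 207 TPM beside it.

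Of the stimulatory adenosine receptors, Adora2a is abundant in the striatum. Adora2a (chr10:75316877-75334784, plus strand, 4 transcripts) had 1025 counts in replicate 1 and 194 in replicate 2, or 25.35 and 4.67 TPM (mean 15.0 ± 14.6). As for Drd2, replicate 1 was the high library. Replicate 2 was 5.61-fold lower, a log2 difference of -2.49 (counting interval -2.73 to -2.28), with 53 genes at or below it. The second table gave like differences for the 3 well-counted receptors of this kind, -2.56 for Adora2a, -2.72 for Drd2 and -1.79 for Drd1.

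Adora2b, a receptor of low affinity for adenosine, did not follow Adora2a. Adora2b (chr11:62248984-62266453, plus strand, 1 transcript) had 123 and 112 counts, or 3.71 and 3.16 TPM (mean 3.44 ± 0.39). The difference was -0.23, its counting interval of -0.62 to 0.15 spans 0, and 18.6% of the genes compared were at or below it.

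Within a library, the share of one receptor in the reads of a pair does not depend on depth. Drd1 made up 68.2% of the counts of Drd1 and Drd2 in replicate 1 (exact Clopper-Pearson 95% interval 66.1 to 70.3) and 82.0% in replicate 2 (78.4 to 85.2). The intervals do not overlap, so the share of Drd1 was higher in replicate 2 by more than counting error. Adora2a made up 61.9% of the counts of Adora2a and Drd2 in replicate 1 (59.5 to 64.2) and 67.6% in replicate 2 (61.8 to 73.0). These intervals overlap, which does not decide whether the proportion of Adora2a and Drd2 differed. Both genes were lower in replicate 2 by more than 5-fold. Drd1 made up 57.0% of the counts of Drd1 and Adora2a in replicate 1 (55.0 to 59.0) and 68.6% in replicate 2 (64.7 to 72.2). Replicate 2 thus held relatively more Drd1 against either indirect-pathway receptor. The intervals cover counting error within each library and not the spread between animals.

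Pairs were also compared per length, as log2 ratios of TPM + 0.1, in 11 pairs. All 11 had the same sign in both libraries with a mean beyond the SD. How often other gene pairs meet this rule was not counted, so it gives a direction in these libraries only. Drd1 exceeded Drd2 by 1.17 and 2.07 (1.62 ± 0.63, n = 2), and the D1 class as a whole exceeded the D2 class by 1.11 and 2.13 (1.62 ± 0.72). Adora2a exceeded Drd2 by 0.89 and 1.28 (1.09 ± 0.27). Drd1 exceeded Adora2a by 0.28 and 0.79 (0.53 ± 0.36), but this order did not hold in the second table, with -0.34 and 0.50. It also did not hold without the short transcript Drd1-203, a setting chosen after the data were seen, with a mean of -0.0165. That setting took a short transcript from Drd1 only, and Adora2a-202 (434 nt, 4.31 and 0.49 TPM) was kept, so it gives no order either way.

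Within classes, 1 receptor was the highest in both libraries, but Adora2a exceeded Adora2b by only 1.46-fold in replicate 2. Drd1 exceeded Drd5 by 4.50 and 3.13 (3.82 ± 0.97), Drd2 exceeded Drd3 by 3.40 and 3.81 (3.61 ± 0.30) and Drd4 by 6.61 and 3.53 (5.07 ± 2.18). With few counts of Drd3 and Drd4 these sizes depend on the pseudocount: Drd2 over Drd3 was 2.10 with a pseudocount of 1, 4.36 with 0.01 and 5.42 from counts, and Drd2 over Drd4 was 2.62 with a pseudocount of 1. Adora1 exceeded Adora3 by 8.23 and 7.46 in the gene table (7.84 ± 0.55), and by 6.52 on average in the second table. The balance of the adenosine family differed widely between the libraries. Adora1 exceeded Adora2a by 1.5 in replicate 1 and by 4.14 in replicate 2 (2.82 ± 1.87), and Adora2a exceeded Adora2b by 2.74 and 0.55 (1.64 ± 1.55). Inhibitory adenosine receptors exceeded stimulatory ones by 1.31 and 3.42 (2.36 ± 1.49).

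As shares of the TPM of each family, Adora1 took 71.2% of adenosine receptor TPM in replicate 1 and 91.1% in replicate 2, and Adora2a 25.0% and 5.05%. Summed adenosine receptor TPM was similar, at 101.2 and 92.5, since Adora1 outweighed the others. Summed dopamine receptor TPM was 46.9 and 11.0. Drd1 took 65.7% and 74.3% of it, Drd2 29.0% and 17.0%, and Drd5 2.69% and 7.66%.

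The transcripts of a receptor were less certain than its gene level. For Drd1 the first transcript table gave Drd1-201 58.28% of the gene's TPM in replicate 1 and 49.08% in replicate 2 (53.7 ± 6.51), Drd1-203 35.53% and 28.17%, and Drd1-202 6.19% and 22.76%. The second table gave Drd1-203 a value of 0 in both and Drd1-202 99.99% and 85.0%. Drd1-201 lies wholly within Drd1-202, with 0 exonic bases of its own, and Drd1-202 has 50 bases that Drd1-201 lacks, so few reads can separate them. Drd1-203 is a processed transcript of 405 nt with 52 bases of its own, and its 63.55 and 14.25 counts make 10.94 and 2.30 TPM, since TPM divides by length. Gene TPM of Drd1 without it was 12.8 on average.

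**Figure D3:**
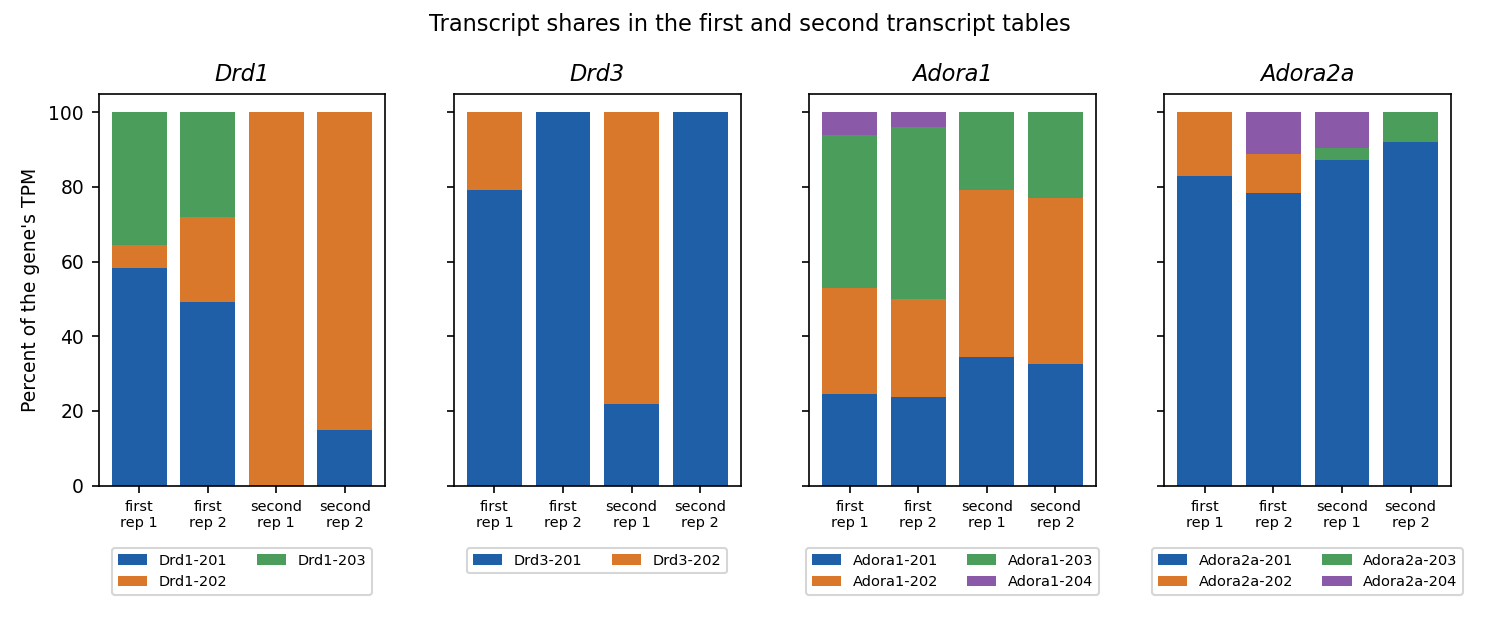
Share of each transcript in the TPM of its gene (percent, stacked bars) for Drd1, Drd3, Adora1 and Adora2a, in the first and second transcript tables and replicates 1 and 2. The bars of Drd1 and Adora1 differ between the tables. Those of Drd3 differ in replicate 1 only, and its replicate 2 rests on 1 count. Adora2a-201 holds between 78.42% and 92.0% in all 4 bars.

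The Adora1 shares were alike between libraries but not between tables. In the first table Adora1-203 led with 41.14% and 46.08% (43.6 ± 3.49), before Adora1-202 with 28.36% and 26.38%, and Adora1-201 with 24.49% and 23.69%. In the second table Adora1-202 led with 44.7% and 44.4%, and Adora1-204 (763 nt) was at 0. Adora2a-201 led in both tables, at 82.99% and 78.42% in the first and 87.2% and 92.0% in the second. Drd3 was given mostly to Drd3-201 in replicate 1 by the first table (79.24%) and mostly to Drd3-202 by the second (78.0%). Drd3-201 has 0 exonic bases outside Drd3-202.

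The genes that differed between the libraries most like Drd1, Drd2 and Adora2a were sought among the 11831 protein-coding genes whose mean count reached 100, over 2 libraries, by the gap in log2 difference. Nearest to Drd1 (-1.78) were Npcd (-1.78), Pde10a (-1.79), Htr1d (-1.81), Baiap3 (-1.74) and Scube3 (-1.73). Pde10a, a phosphodiesterase abundant in striatal projection neurons, stood at 80.18 and 24.75 TPM. Nearest to Drd2 were Six3 (-2.88), Ccdc187 (-2.93), Nts (-2.69), Cd4 (-2.63) and Ecel1 (-3.05). Six3, a homeobox factor of the ventral forebrain, stood at 4.57 and 0.59 TPM. Nearest to Adora2a were Penk (-2.40), Rgs9 (-2.58), Cd4, Nts and Scn4b (-2.29). Penk, the enkephalin precursor of indirect-pathway neurons, stood at 108.5 and 20.3 TPM, and Rgs9, which shortens G protein signalling in the striatum, at 48.0 and 8.01. With 2 libraries the likeness is that of a single difference, and many genes would match by it.

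Markers of striatal projection neurons were lower in replicate 2 beside the receptors. Of the 14 shared markers 8 were lower by more than 2-fold and 0 higher (median -1.05). These 8 were Rgs9 (-2.58), Scn4b (-2.29), Ido1 (-2.18), Ppp1r1b, which encodes DARPP-32 (-2.01), Pde10a (-1.79), Rarb (-1.37), Gng7 (-1.08) and Adcy5 (-1.03). Ido1 (28 and 5 counts) passed the count limit only through replicate 1, where it is high. The highest of the list were Ppp1r1b (185.6 and 46.0 TPM), Gng7 (115.7 and 54.8), Foxp1 (70.5 and 67.9) and Adcy5 (81.9 and 39.8). Foxp1, which cortical neurons also express, differed by 0.12.

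Direct-pathway markers were divided. Isl1 (-3.58), Slc35d3 (-2.24) and Tac1, the substance P precursor (-1.90), were lower by more than 2-fold; the other 4 of 7 were within it. Tac1 stood at 37.9 and 9.32 TPM, against 26.4 and 22.0 for Sfxn1, 22.2 and 19.1 for Chrm4 and 15.1 and 13.9 for Pdyn, the dynorphin precursor. The 7 markers summed to 112 and 70.8 TPM, with a median difference of -0.27. Isl1 (88 and 6 counts) passed the count limit only through replicate 1, where it is high. Of 4 indirect-pathway markers that could be matched, Penk (-2.40) was lower by more than 2-fold, and Gpr6 (7.74 and 4.62 TPM), Plxdc1 (5.92 and 4.45) and Sp9 (3.08 and 1.57) were lower by less (median -0.81). No striatal marker of these lists was at 0 in either library. Whether striatal tissue took part in the receptor differences was not tested.

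Markers of cortical layers also differed. The deep-layer median was less negative than those of the shared (-1.05) and indirect-pathway (-0.81) striatal markers. It was more negative than that of the direct-pathway markers (-0.27). The medians of upper-layer and cortical excitatory markers had the opposite sign. Of 10 deep-layer markers 3 were lower by more than 2-fold, Foxp2 (-1.35), Bcl11b (-1.08) and Syt6 (-1.05), and the list had a median of -0.65 and summed to 296 and 203 TPM. Its highest genes were Crym (83.4 and 45.8 TPM), Rprm (66.2 and 49.2), Bcl11b (44.1 and 19.4) and Etv1 (30.1 and 33.0). Bcl11b and Foxp2 are expressed by striatal projection neurons too, and the part of either tissue in their levels was not tested. All 7 upper-layer markers were higher in replicate 2 (median 0.41), and all 7 cortical excitatory markers were as well (median 0.30), 0 of them by more than 2-fold. Upper-layer markers were led by Cux2 (74.4 and 116.3 TPM), Calb1 (65.4 and 71.6), Rasgrf2 (61.1 and 70.3) and Cux1 (53.6 and 68.4). The part of layer composition in the receptor differences was not tested.

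**Figure D4:**
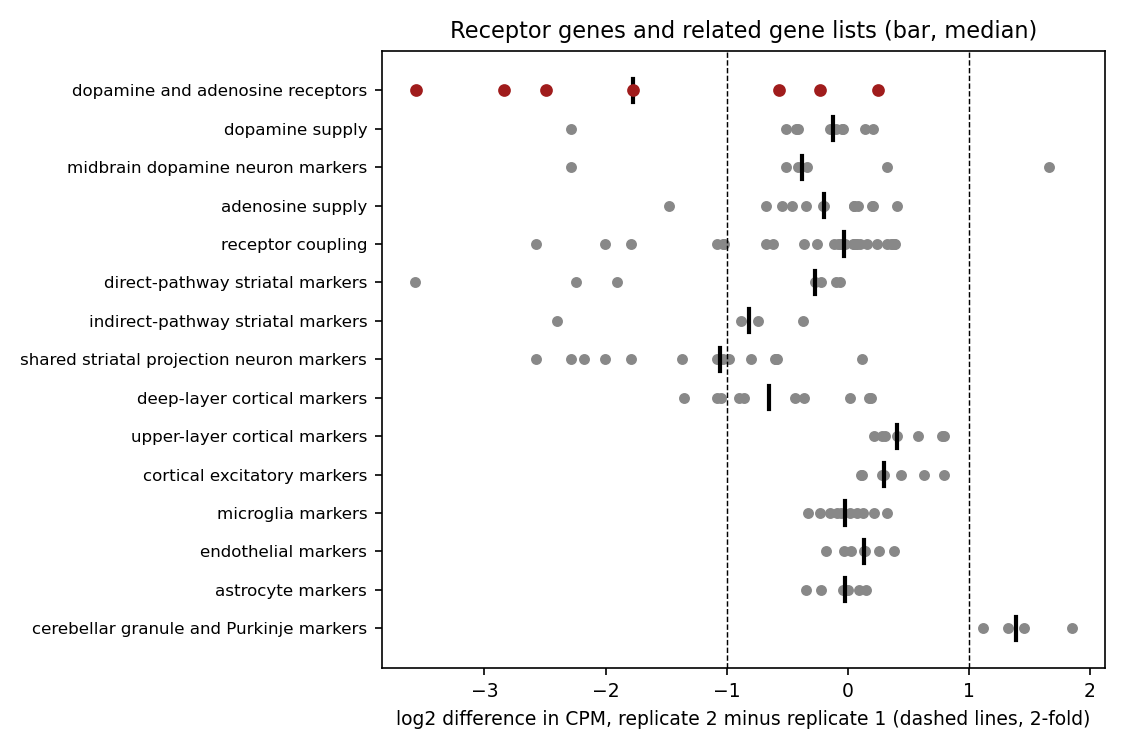
Difference between the libraries (log2 CPM, replicate 2 minus replicate 1) of the 7 receptor genes compared, in red, and of each gene of 14 related lists, in grey, with a bar at the median and dashed lines at 2-fold. The receptors have the lowest median (-1.78), followed by the shared striatal markers (-1.05), while glial and endothelial lists lie near 0. The receptor median includes Drd3, which passed the count limit only through replicate 1. Without Drd3 it would lie between -1.78 and -0.57.

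Glial and vascular genes were alike between the libraries. The median difference was -0.02 for 10 microglia markers, -0.02 for 7 astrocyte markers and 0.13 for 7 endothelial markers, with 0 genes beyond 2-fold in these lists. Microglia markers included Csf1r (36.1 and 31.2 TPM), P2ry12 (30.2 and 34.7) and C1qb (23.3 and 19.99). Astrocyte markers were led by Slc1a2 (948 and 1001 TPM), Slc1a3 (175 and 172), Gja1 (100.1 and 101.1) and Fgfr3 (56.4 and 50.8). Endothelial markers were led by Cldn5 (37.1 and 38.0 TPM), Ly6c1 (28.9 and 28.3), Slco1a4 (16.5 and 14.7) and Flt1 (14.6 and 16.3). These glial and vascular levels differed far less between the libraries than those of Drd1, Drd2 and Adora2a. Of the 6 cerebellar markers 4 could be compared, and all 4 were higher in replicate 2 by more than 2-fold. These were Gabra6 (1.85), Fat2 (1.46), Cbln3 (1.33) and En2 (1.11), at levels of at most 0.59 TPM. Gabra6 (3 and 17 counts) and En2 (5 and 14) passed the count limit only through replicate 2, where they are high. Of all genes compared, 1.44% were higher by more than 2-fold. Pcp2, a Purkinje cell gene, was at 0.15 and 0.50 TPM from 2 and 4 counts.

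Genes that make, move and clear dopamine were nearly alike in sum, at 117 and 114 TPM over 12 genes, of which 6 reached 1 TPM in both. Among them were enzymes that many cells express: Qdpr (40.6 and 39.3 TPM) and Pts (19.6 and 18.8), of the tetrahydrobiopterin cofactor, and Maoa (10.8 and 9.79), which degrades dopamine. Tyrosine hydroxylase, Th, the rate-limiting enzyme, was the 1 of 10 genes compared beyond 2-fold, at 1.85 TPM in replicate 1 and 0.28 in replicate 2 (-2.29, from 53 and 10 counts). The dopamine transporter Slc6a3 was at 0.08 and 0.03 TPM.

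Of the 10 markers of midbrain dopamine neurons, whose axons reach the cortex but whose cell bodies lie elsewhere, Foxa2 was at 0 in both libraries, and Pitx3 and En1 were at 0 in replicate 2. Lmx1b was higher in replicate 2 by 1.66, from 4 and 18 counts, and passed the count limit only through that library. The highest were Nr4a2 (25.6 and 20.3 TPM), which cortical neurons also express, Aldh1a1 (16.0 and 18.6), Ddc (3.75 and 2.47) and Th. The list summed to 47.8 and 42.1 TPM with a median difference of -0.37, or -0.02 over genes with a mean count of 100 or more. Only Nr4a2 (-0.34) and Aldh1a1 (0.32) reached that count, so the second median lies between opposite values.

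Genes that supply and remove adenosine were steady as well, with 112 and 108 TPM over 15 genes, of which 11 reached 1 TPM in both libraries. The highest were Adk, the kinase that clears adenosine (30.3 and 35.4 TPM), and the transporters Slc29a4 (19.0 and 21.2) and Slc29a1 (13.3 and 9.54), before Entpd1, which breaks down ATP outside cells (10.2 and 7.92). Entpd3, of the same enzyme family, was the 1 of 13 compared beyond 2-fold, at 4.19 and 1.43 TPM (-1.48). The median difference was -0.19, and 0.04 when only genes with a mean count of 100 or more were kept.

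Among 30 genes that carry the receptor signal, all were detected, and 6 were lower in replicate 2 by more than 2-fold, with 0 higher and a median of -0.03. The 6 were Rgs9, Ppp1r1b, Pde10a, Gng7, Adcy5 and the phosphodiesterase Pde1b (-1.02), and 5 of them stand in the striatal list too. Gnal, the stimulatory G protein alpha subunit that Drd1 and Adora2a receptors use in the striatum, was at 112.8 and 67.7 TPM (-0.68). The widely expressed Gnas was at 890.1 and 827.8 TPM (-0.11). Gnb1 (466 and 467 TPM), Gnao1 (443 and 445) and Rgs4 (181 and 236), the next highest of the list, were not lower in replicate 2.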

How the data were processed

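Total RNA of the left cerebral cortex was sequenced in 2 libraries. Per the file headers and the description texts deposited with them, expected counts (estimated reads, not normalized), TPM over all entries and the percent of each gene in each transcript were made from alignments to the GENCODE M21 transcriptome (mm10). A second deposited transcript table with estimated counts and TPM came directly from the reads and was summed per gene. The quantifier, its version and any use of strand were not given in the sources used here, so antisense genes may share reads. The first table subtracts 99 bases from each long transcript's length and the second about 352 (replicate 1) or 339 (replicate 2), which changes short transcripts most, and the second TPM were higher by a median factor of 1.56 and 1.54.

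Rounded expected counts gave log2 CPM, replicate 2 minus replicate 1 (edgeR 4.0.16, R 4.3.3, TMM factors, prior count 2), for genes with at least 10 counts in 1 library. The steps were tested on simulated data. The 96 spike-in entries were left out. Intervals and floors cover counting error only. Alternatives were the second table, DESeq2 1.42.0 size factors, library or spike-in totals, other priors, filters, thresholds and pseudocounts, and each library left out.

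The members and lists were chosen with earlier results of these data known. The text names all members, the 4 highest and any gene beyond 2-fold of each list it describes, markers at 0, and the 5 genes nearest in difference to Drd1, Drd2 and Adora2a. Of 137 list genes, Gpr52 had no match and Ctgf was matched as Ccn2. Slc6a3 and Gnal were named for their roles after their values were seen. Some genes that this rule would name are not reported here. Lists share some genes.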

Additional observations from a re-analysis of the deposited data

How the results depend on the processing

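The number of receptors detected stayed between 4 and 7 of 9 under 6 alternatives (5 as reported), and the number lower by more than 2-fold was 4 under 6 alternatives and 3 with a mean of at least 100 counts, which leaves out Drd3 and Drd5. Thresholds of 1.5-fold and 3-fold also gave 4. All 47 recomputed differences of the 7 receptors compared kept their direction and their side of 2-fold. Without Drd1-203 the mean log2 ratio of Drd1 over Adora2a changed sign, to -0.0165, which is too small to give an order. Of other ratios 61 were kept and 8 moved by more than the spread, 6 of them with another pseudocount or with counts and 2 with the second table. Of TPM levels 24 were kept and 13 moved, 8 of 9 by rescaling to protein-coding genes and 5 of 9 by the second table. The levels and ratios kept include those with a library left out. These could not move, since each of 2 values lies within the SD of their mean, so they say nothing about stability. Of list medians 26 were kept and 2 moved, those of midbrain dopamine markers and of adenosine supply, when genes needed a mean of at least 100 counts. The long-form share of Drd2 was not run, because the annotation lists 1 transcript. No paired analysis was possible because the libraries form 1 group. Depth limits Drd3, Drd4 and Adora3, each with fewer than 10 counts in at least 1 library.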
